A study of Mus musculus with 6 samples.

Results

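The genes described here are 10 genes of cartilage cells (chondrocytes) that do not encode collagens, read here in monocyte libraries from jaw (mandible) and thigh bone (femur). Acan, Sox9, Sox5, Sox6, Matn1, Matn3, Hapln1, Chad, Prg4 and Cnmd were taken by gene name from a count table of 57010 genes, and each name had 1 row. The cells were marrow monocytes of C57BL/6 mice 1 year old, kept as the flow through of a column that held back other marrow cells. Untreated femur-derived monocytes gave 3 libraries, S13, S15 and S18, which served as the baseline. Untreated mandibular-derived monocytes gave the other 3, S16, S19 and S23. The study collected cells from male and female mice, but the labels give no animal, sex or batch for a library, so p-values measure only the spread between these libraries, which may be technical.

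Cartilage is made by chondrocytes under the control of SOX9, which acts with its partners SOX5 and SOX6 on the enhancers of cartilage genes. Aggrecan, the product of Acan, is a large proteoglycan that holds water in the tissue, and the link protein made from Hapln1 fixes it to hyaluronan. Matrilins (Matn1 and Matn3) and chondroadherin (Chad) connect fibrils, aggregates and cells, Prg4 encodes lubricin at joint surfaces, and Cnmd encodes chondromodulin, which keeps blood vessels out. Monocytes are not known as a source of cartilage matrix. The femur carries cartilage at the knee and hip, and the mandible carries it on its condyle.

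Counts on these genes were low, and none of the 10 was called different between mandibular- and femur-derived monocytes. Genes were tested with edgeR (quasi-likelihood F test, Benjamini-Hochberg adjustment over all tested genes), and a call required that the adjusted p was under 0.05 with the level changed at least 2-fold. The test covered 6 of the 10 members, and the other 4 (Matn1, Matn3, Chad and Cnmd) had too few counts to pass its filter. Of all 18114 tested genes, 5.18% were called, 3.88% as higher in the mandible. No member had an unadjusted p under 0.05 in this edgeR fit, and DESeq2 and limma-voom also called 0. By DESeq2 the unadjusted p was under 0.05 for Sox9 (0.039) and Prg4 (0.016). By limma-voom it was under 0.05 for Acan (0.029), Sox9 (0.039) and Prg4 (0.028). Some other edgeR fits also gave such values. With no filter beyond a single count, they were 0.026 for Prg4 and 0.016 for Sox6, the latter lower in the mandible. Without S15 they were 0.0027 for Acan, 0.015 for Prg4, 0.043 for Hapln1, 0.047 for Chad and 0.048 for Sox6, again lower. Acan, Hapln1 and Chad are then at 0 in both remaining femur libraries, and only Acan was called. Sox6 also had 0.018 with a correction for gene length and 0.023 without S18, and Prg4 had 0.046 without S16. Acan, Sox9 and Prg4 were higher in every mandible library than in every femur library, as were 12.7% of all tested genes, while Sox5 and Sox6 overlapped. Matn1 and Matn3 had no count in the mandible.

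The number of genes with a count differed between the libraries, and 1 femur library stood apart. S15 had at least 1 count on 40494 genes, against 17481 to 23513 in the other 5 libraries. In S15 13454 genes were counted that had no count anywhere else, whereas the other libraries had 77 to 417 such genes each. Its total of 19808090 counts lay within the 15718782 to 25371474 of the other 5. The S15-only genes took 0.465% of its counts, with a median of 5 counts per gene. Their median level was 0.205 CPM per kilobase of gene length (CPM per kb), where CPM is counts per 1000000 after TMM scaling, which sets the libraries to a common effective size, and 90% of them lay at or under 0.921. All 10 members had a count in S15, while 4 had one in S13 and 5 in S18. S15 also had the highest level of the femur libraries in 8 members. On the scale of CPM per kb, the level of the members in S15 was reached or passed by 17.1% (Sox6) to 95.3% (Matn3) of the S15-only genes, and that of Acan by 37.1%. Results that rest on S15 are therefore given with and without it.

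**Figure D1:**
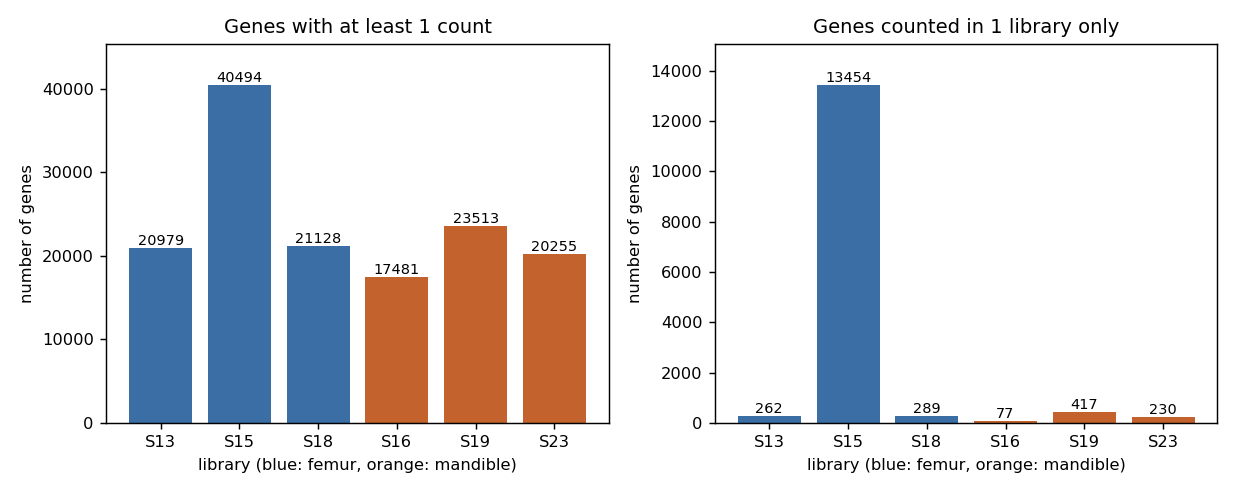
Number of genes with at least 1 count (left) and number of genes with a count in that library and in no other (right), for each femur (blue) and mandible (orange) library. S15 stands apart in both panels, with 40494 and 13454 genes.

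Markers of sex and of other cell types were read beside the members. Xist, which silences an X chromosome in female cells, had 25189 counts in mandible S23 and at most 12 in any other library. On the Y chromosome, Uty, Kdm5d, Eif2s3y and Ddx3y were at 0 in S23 and between 432 and 1581 counts in every other library. By these genes S23 read as female and the rest, among them every femur library, as male. Sex was thus partly mixed with site. S23 was also the highest library for Acan, Sox9 and Prg4. Without S23 their log2 fold changes were 1.62, 2.20 and 2.46 (edgeR), against 1.91, 2.48 and 3.06 with it. What sex contributed was not tested. The 10 monocyte markers read with the members summed to 6857 to 13055 CPM in femur libraries and to 6002 to 10380 CPM in mandible libraries, and none of them was called by edgeR. For the most abundant, Lyz2 (lysozyme), the log2 fold change was -0.32, and for Ccr2, the chemokine receptor of classical monocytes, it was 0.017. In contrast, 10 osteoblast markers summed to 150 to 196 CPM in femur libraries and to 7592 to 11792 CPM in mandible libraries. Of these 9 were called higher in the mandible, beside 3.88% of all tested genes, and 1 was at 0 in both S13 and S18. Markers of enamel-forming epithelium summed to 0.221 to 4.93 CPM in femur libraries and to 5832 to 11440 CPM in mandible libraries, with 8 of 10 called and 6 at 0 in both S13 and S18. The 8 neutrophil markers summed to 32956, 3842 and 24052 CPM in femur S13, S15 and S18 and to 3927 to 10376 CPM in mandible libraries, so S15 lay below the other femur libraries, and 1 marker, S100a8, was called lower in the mandible. What part such cells had in the members' values was not tested. In bulk libraries, fewer cells of a type and less RNA per cell cannot be told apart.

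Sox9, the lead regulator, on chromosome 11 from 112782224 to 112787760 of GRCm38 (GENCODE M21), had 0, 13 and 30 counts in femur S13, S15 and S18. In mandible S16, S19 and S23 it had 77, 50 and 82 counts. In CPM these were 0, 0.599 and 1.33 for the femur and 3.85, 2.37 and 4.69 for the mandible. Every mandible library lay above every femur library, and the femur library with the most Sox9 was S18, not S15. Femur libraries averaged 0.641 ± 0.664 CPM and mandible libraries 3.64 ± 1.17 CPM (SD, n = 3 each; exact permutation test, two-sided, p = 0.1, the smallest that 3 against 3 libraries can give). The log2 fold change was 2.48 with a standard error of 1.32, which did not pass the threshold (edgeR, adjusted p = 0.41). Without S15 it was 2.39 (edgeR, adjusted p = 0.45).

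Sox5 and Sox6 encode the partners that help SOX9 on cartilage enhancers, and both genes are also used outside cartilage. Sox5 lies on chromosome 6 from 143828425 to 144781977. It was 1.16, 3.04 and 0.486 CPM in femur S13, S15 and S18 and 0.300, 2.09 and 1.94 CPM in mandible S16, S19 and S23. Its highest value belonged to the femur and its lowest to the mandible, but the ranges of the groups overlapped from 0.486 to 2.09 CPM. The log2 fold change was -0.11 with a standard error of 1.26 (edgeR, adjusted p = 0.98), and the sign turned without S15 (0.77) or without S16 (0.38). In GENCODE M21, Sox5 shares 1330 exon bases with the antisense gene Sox5os1, which had 7 counts in S15 and none elsewhere. How reads in the shared bases were assigned is not named in the study's methods.

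Sox6 was the most abundant member in counts. The gene lies on chromosome 7 from 115470872 to 116038796 and is also active in red cell precursors, where it silences embryonic globin. It had 703 counts in femur S13, 201 in S15 and 122 in S18, and 202, 139 and 141 in mandible S16, S19 and S23. The level of S13, 38.8 CPM, lay far above the 5.39 to 10.1 CPM of the other 5 libraries, which overlapped between the groups. Femur libraries averaged 17.8 ± 18.3 CPM and mandible libraries 8.26 ± 1.76 CPM (SD, n = 3 each; exact permutation test, two-sided, p = 0.8). The log2 fold change was -1.11 with a standard error of 0.64 (edgeR, adjusted p = 0.47) and turned to 0.18 without S13. It was -1.46 without S15, -1.54 without S18 and -1.85 with a correction for gene length (edgeR, adjusted p 0.16 to 0.30). S13 was also the library with the most erythroid RNA. The 9 erythroid markers with a row summed to 1597 CPM in S13, to 236 and 291 CPM in S15 and S18 and to 102 to 178 CPM in the mandible. Of these, Hba-a1, an alpha globin whose reads may be shared with its close copy Hba-a2, was lower in the mandible with a log2 fold change of -2.98 (edgeR, adjusted p = 0.030), and it was not called without S13 (-1.41, adjusted p = 0.065) or without S16, S19 or S23 (adjusted p 0.090 to 0.16). The anion exchanger Slc4a1 was not called, with a log2 fold change of -1.68 that turned to 0.040 without S13, but it was called with no filter beyond a single count (-1.76, edgeR, adjusted p = 4.4e-06). Whether red cell precursors set the Sox6 level of S13 was not tested.

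**Figure D2:**
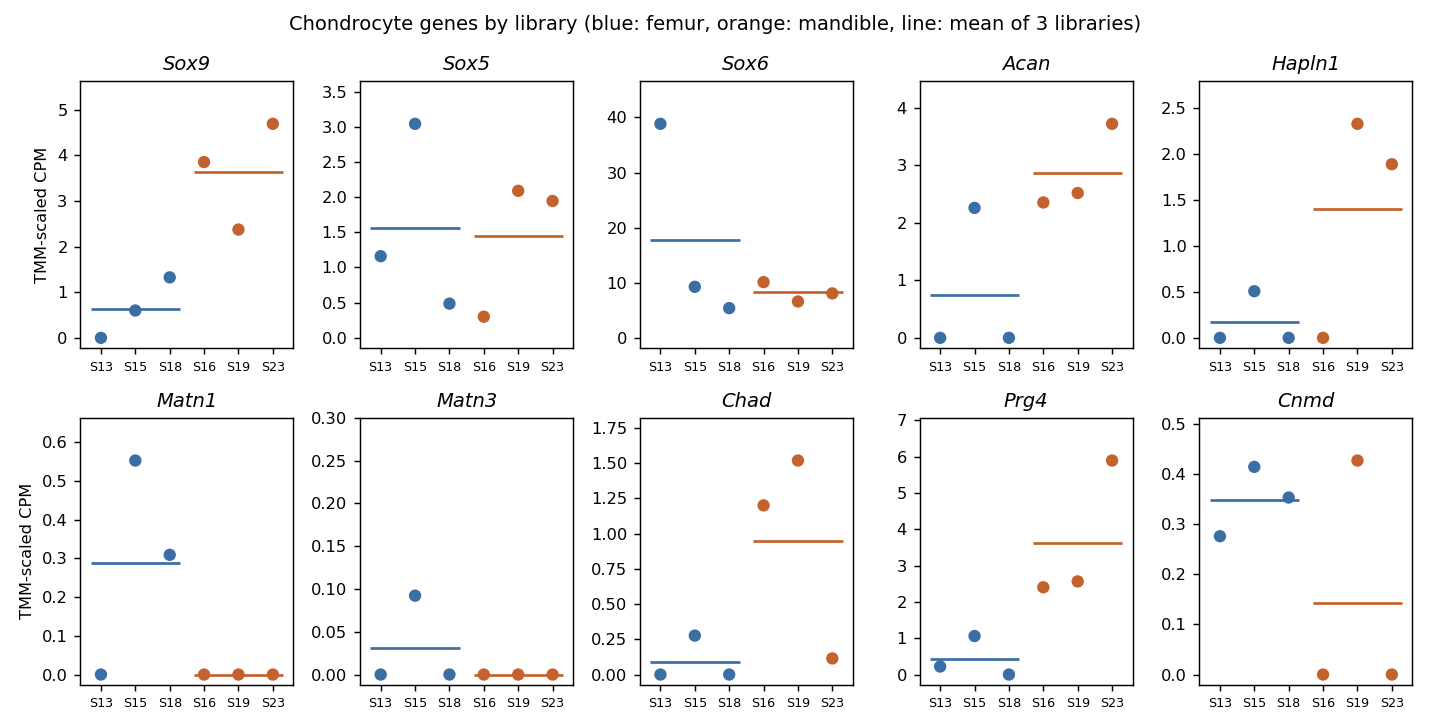
Level of each of the 10 genes in TMM-scaled CPM (linear axis, own range per panel) in the 3 femur (blue) and 3 mandible (orange) libraries, with a line at each group mean. Acan, Sox9 and Prg4 do not overlap between the groups, Sox6 stands out in S13 at 38.8 CPM, and Matn1 and Matn3 are at 0 in all mandible libraries.

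Acan lies on chromosome 7 from 79053483 to 79115099. No read was counted on it in femur S13 and S18, which allows up to 0.166 and 0.133 CPM (3 counts, counting error only), but 49 counts in S15. In the mandible it had 47, 53 and 65 counts in S16, S19 and S23. In TMM-scaled CPM, S15 was 2.26 and the mandible libraries 2.35, 2.52 and 3.72, so that the groups were separated only by the small step between S15 and S16, where the raw counts run the other way. Femur libraries averaged 0.753 ± 1.30 CPM and mandible libraries 2.86 ± 0.746 CPM (SD, n = 3 each). With all 6 libraries the log2 fold change was 1.91 with a standard error of 1.69 (edgeR, adjusted p = 0.69). Without S15, Acan was called higher in the mandible (edgeR, adjusted p = 0.036), in a fit that called 8.35% of 18742 genes, 5.11% as higher. Both remaining femur libraries are then at 0, so Acan passed the filter only through the mandible libraries, where it was counted. The call thus rests on leaving out the femur library whose level was near that of S16. The mandible mean was at least 17.3-fold higher than the larger limit of 3 counts of S13 and S18.

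Hapln1, the gene of the link protein, lies on chromosome 13 from 89539796 to 89611652. It had 0, 11 and 0 counts in femur S13, S15 and S18 and 0, 49 and 33 counts in mandible S16, S19 and S23. Thus it was missing from 1 mandible library, S16, in which Acan had 47 counts. Femur libraries averaged 0.169 ± 0.293 CPM and mandible libraries 1.4 ± 1.24 CPM (SD, n = 3 each; exact permutation test, two-sided, p = 0.4). The log2 fold change of 3.0 had a standard error of 2.20 (edgeR, adjusted p = 0.60). Without S15 the adjusted p was 0.22 (edgeR), and the mandible mean was at least 8.48-fold above the larger limit of S13 and S18.

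Chad encodes chondroadherin, a leucine-rich protein to which chondrocytes attach, and lies on chromosome 11 from 94565047 to 94569127. In the femur it was counted only in S15, with 6 counts. The mandible libraries S16, S19 and S23 had 24, 32 and 2 counts, which are 1.2, 1.52 and 0.114 CPM. S23 lay below S15 (0.276 CPM), so the groups overlapped although both other mandible libraries were higher (exact permutation test, two-sided, p = 0.2). Chad did not pass the filter with all 6 libraries. With that filter dropped, its adjusted p was 0.50 (edgeR). It passed the filter in 4 of the fits without 1 library, where its adjusted p was 0.93 without S13, 0.23 without S15, 0.87 without S18 and 0.51 without S23, also by edgeR.

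The matrilins among the members were counted in the femur alone. Matn1 lies on chromosome 4 from 130944385 to 130955475, and its product, cartilage matrix protein, is found in cartilage away from the joint surface. It had 12 counts in femur S15 and 7 in S18 (exact 95% Poisson interval 2.81 to 14.4), and no count in femur S13 or in any mandible library. A count of 0 allows up to 0.150, 0.142 and 0.172 CPM in S16, S19 and S23 (3 counts), against 0.309 CPM measured in S18 and 0.553 CPM in S15. The lower end of the S18 interval, 2.81 counts, is under the 3 counts that a 0 allows. That sets S18 against a single library at 0, whereas every mandible library was at 0. Whether counting error covers the step was not tested. Matn3, on chromosome 12 from 8947929 to 8972028, had 2 counts in S15 and none in the other 5 libraries. Neither passed the filter, and with no filter beyond a single count both had an adjusted p between 0.50 and 0.51 (edgeR). The other matrilins differed from them. Matn4 was 0, 1.38 and 0 CPM in femur S13, S15 and S18 and 17.4, 36.7 and 62.9 CPM in mandible S16, S19 and S23, a log2 fold change of 6.36 with a standard error of 1.15 (edgeR, adjusted p = 0.0077), though it was not called without S19 (adjusted p = 0.051) or by limma-voom (adjusted p = 0.067). Without S15 both femur libraries are at 0 for Matn4. Matn2, named here after its value was seen, averaged 4.41 ± 1.41 CPM in femur and 18.4 ± 5.50 CPM in mandible libraries (SD, n = 3 each; edgeR, adjusted p = 0.023) and was not called without S13, S18, S19 or S23 (adjusted p 0.097 to 0.12). Matn2 and Matn4 are made in many connective tissues besides cartilage.

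Prg4 lies on chromosome 1 from 150449412 to 150466165 and encodes lubricin, the lubricant of joint surfaces and of the synovial lining. It was 0.221, 1.06 and 0 CPM in femur S13, S15 and S18 and 2.40, 2.56 and 5.89 CPM in mandible S16, S19 and S23. Every mandible library lay above every femur library, with S23 the highest by more than the whole femur range (exact permutation test, two-sided, p = 0.1, again the smallest). The log2 fold change was 3.06 with a standard error of 1.42, and its unadjusted p of 0.054 was the smallest of the members (edgeR, adjusted p = 0.32). Without S15 the log2 fold change was 4.97 (edgeR, adjusted p = 0.11). Prg4 shares 204 exon bases with Tpr on the other strand, which had 6398 to 13906 counts, and the use of the strand in counting is not named in the study's methods.

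Cnmd, on chromosome 14 from 79637690 to 79662170, was the only member counted in every femur library while missing from most mandible libraries. It had 5, 9 and 8 counts in femur S13, S15 and S18, and 0, 9 and 0 counts in mandible S16, S19 and S23. The value of S19, 0.427 CPM, was above all femur values, which were 0.276 to 0.414 CPM, so the groups overlapped (exact permutation test, two-sided, p = 0.4). Tenomodulin (Tnmd), the relative of chondromodulin in tendon and ligament, had the other pattern, and was chosen after its values were seen. It had no count in any femur library and 64, 38 and 25 counts in mandible S16, S19 and S23. Its mandible mean of 2.15 ± 0.934 CPM (SD, n = 3) was at least 12.9-fold above the largest femur limit of 3 counts, but it was not called (edgeR, adjusted p = 0.053), except by DESeq2 (adjusted p = 0.00063) and with no filter beyond a single count (adjusted p = 0.030, edgeR).

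**Figure D3:**
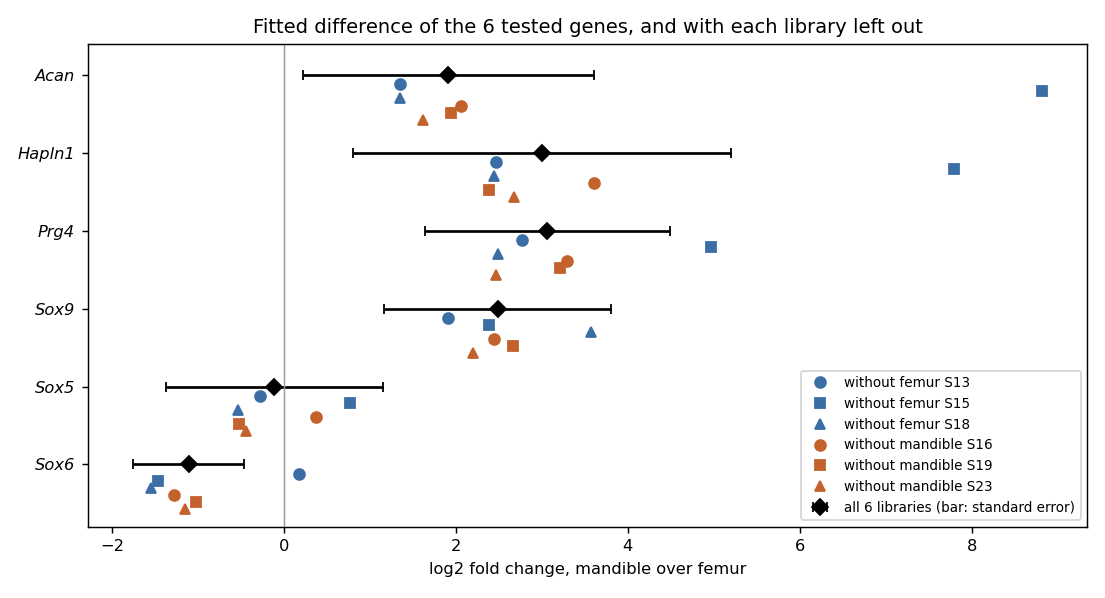
Log2 fold change (mandible over femur) of the 6 tested genes with all libraries (black, bar of 1 standard error) and with each library left out (blue for femur, orange for mandible). Leaving out femur S15 moved Acan from 1.91 to 8.81, a fitted value against femur libraries at 0, and leaving out femur S13 moved Sox6 from -1.11 to 0.18.

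Per gene length, the order of the members differed between the sites. In the mandible the mean levels were 0.880 ± 0.284 CPM per kb for Sox9, 0.846 ± 0.460 for Prg4, 0.562 ± 0.438 for Chad and 0.557 ± 0.119 for Sox6 (SD, n = 3). They were followed by Acan with 0.383 ± 0.0998, Hapln1 with 0.238 ± 0.209, Sox5 with 0.10 ± 0.0691 and Cnmd with 0.0773 ± 0.134 CPM per kb (SD, n = 3), and Matn1 and Matn3 were at 0. Sox6 and Acan were the only neighbours in this order, among those with a count, whose means lay farther apart than the larger SD, and even their libraries overlapped. In the femur, Sox6 led with 1.2 ± 1.23 CPM per kb, and all others lay at or under the 0.189 ± 0.0377 of Cnmd (SD, n = 3). No neighbours in the femur order were farther apart than the larger SD. Summed without Sox6, the other 9 members reached 1.66, 8.80 and 2.47 CPM in femur S13, S15 and S18 and 10.1, 13.8 and 18.2 CPM in mandible S16, S19 and S23. The femur value came near the mandible range in S15 only.

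The sequence before the start of a gene holds sites for the factors that begin its transcription. Windows of 250 bases before the RefSeq start (GRCm38.p6) were on hand for 8 of the 10 members, 13 windows in all. Of them, 3 are printed because their genes had contrasting counts. Acan and Chad were at 0 in S13 and S18 and counted in every mandible library, while Matn1 was at 0 in every mandible library. The windows were searched on both strands for the core that SOX proteins bind, as ACAAT or ACAAAG, and for the TATA box TATAAA. Capitals mark a match. The window of Acan is chr7:79052976-79053225 (plus strand), that of Chad chr11:94564797-94565046 (plus strand) and that of Matn1 chr4:130944135-130944384 (plus strand).
Acan: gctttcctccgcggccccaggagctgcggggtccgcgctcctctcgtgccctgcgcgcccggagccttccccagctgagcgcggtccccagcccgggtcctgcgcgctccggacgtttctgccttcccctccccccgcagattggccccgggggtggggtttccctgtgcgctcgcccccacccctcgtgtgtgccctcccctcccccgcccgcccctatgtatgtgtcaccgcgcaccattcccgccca
Chad: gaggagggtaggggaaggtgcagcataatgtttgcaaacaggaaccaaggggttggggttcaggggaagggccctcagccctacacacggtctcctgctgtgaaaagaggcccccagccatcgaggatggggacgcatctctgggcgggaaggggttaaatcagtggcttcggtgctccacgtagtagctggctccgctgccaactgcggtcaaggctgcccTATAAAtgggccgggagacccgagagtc
Matn1: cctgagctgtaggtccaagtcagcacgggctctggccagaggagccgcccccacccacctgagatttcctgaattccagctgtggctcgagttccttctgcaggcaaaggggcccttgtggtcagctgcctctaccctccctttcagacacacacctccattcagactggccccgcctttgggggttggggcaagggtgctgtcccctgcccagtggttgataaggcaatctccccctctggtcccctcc

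None of these 3 windows held the SOX core, and the window of Chad held TATAAA beginning 28 bases before the start. In all 32851 windows of the same length, 38.8% held the SOX core and 12.4% held TATAAA. Among the members, the core was found in 8 of the 13 windows, those of Sox5 and Hapln1 and each of the 6 windows of Sox6. These belong to 3 of the 8 genes, so the share of windows rests mostly on Sox6. G and C made up 74.4% of the window of Acan, 62% of that of Matn1 and 60.4% of that of Chad, against a median of 52.4% over all windows. Such matches describe the letters of these windows only.

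Other cartilage genes were read in 7 lists of 100 genes in all. In the table were 99 of them, 74 passed the filter, and 28 of these (37.8%) were higher in the mandible and 0 lower by edgeR. Of all tested genes, edgeR called 3.88% as higher and 1.3% as lower, which is the background for each list below. Of 8 cartilage collagens, 6 were tested and 5 rose, with a median log2 fold change of 3.99 among the tested, where the median of all tested genes was -0.038. Col2a1, the main collagen of cartilage, averaged 2.87 ± 3.04 CPM in femur and 49.5 ± 32.9 CPM in mandible libraries (SD, n = 3 each). Its log2 fold change was 4.10 (edgeR, adjusted p = 0.020), and it was not called without S13, S19 or S23 (adjusted p 0.067 to 0.10). Its partner genes Col11a1 and Col11a2, which bone also expresses, had log2 fold changes of 6.80 and 3.44, and Col27a1 had one of 3.87. Col9a2 rose by 5.0 on the log2 scale and was not called without S13, S19 or S23 (adjusted p 0.088 to 0.10) or by limma-voom (adjusted p = 0.10), while neither of the other chains of collagen IX was called. For Col9a3 the log2 fold change was -1.16 (edgeR, adjusted p = 0.78), and Col9a1 had 0, 5 and 20 counts in mandible S16, S19 and S23, under the 70 counts of S15. Col10a1, the collagen of hypertrophic chondrocytes, had 4 counts in S19, 6 in S15 and none elsewhere.

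Per length, the highest member in the mandible, Sox9, was under the main collagens. The mean was 5.35 CPM per kb for Col2a1, 12.5 for Col11a1, 18.8 for Col11a2 and 884 for Col1a1, the main collagen of bone. The level of Acan per kb was 5.26 to 9.87% of that of Col2a1 in the mandible libraries and 45.3% in S15, and it was 0.0393 to 0.0464% of that of Col1a1 in the mandible and 4.38% in S15. S15 thus held more Acan relative to both collagens than any mandible library, at an Acan level that 37.1% of the S15-only genes reached or passed.

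Of 22 other cartilage matrix genes, 12 were tested and 9 rose, with a median log2 fold change of 3.46. The largest differences belonged to Fmod (fibromodulin, 8.84), Matn4 (6.36) and Hspg2 (perlecan, 5.14), which tendon, ligament, bone or basement membranes also use. Fmod had 0, 4 and 0 counts in femur S13, S15 and S18, so the size of its difference rests on few femur counts. Vcan (versican) was abundant at both sites, with a log2 fold change of 0.28 (edgeR, adjusted p = 0.86). Without S15, its highest library, Vcan was called higher in the mandible, with a log2 fold change of 1.14 (edgeR, adjusted p = 0.040). In contrast, 6 genes of this list, Clec3a, Cytl1, Mia, Otor, Snorc and Ucma, had no count in any mandible library and were counted in S15 only. The regulators Foxa2, Foxa3, Ihh and Nkx3-2 were likewise counted in S15 only. These 10 were chosen after their values were seen, and Matn3 is the only member with the same pattern. Among 12 tested regulators 4 rose, with a median of 1.30. Pth1r, the receptor of parathyroid hormone and of the growth plate signal PTHrP, had a log2 fold change of 3.02, Fgfr3 had one of 2.84 and Zbtb20 one of 1.32, while Trps1, the most abundant, had one of 0.57 and was not called. Fgfr3 lost its call in each of the 6 fits without 1 library (edgeR, adjusted p 0.057 to 0.18), and Zbtb20 lost it without S13, S18, S19 or S23 and under a correction for gene length (0.34).

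Of 20 tested genes of chondroitin sulfate synthesis, 1 was called, Chpf, with a log2 fold change of 2.47, beside 5.18% of all tested genes, and the list's median was -0.14. None of 8 tested hyaluronan genes was called by edgeR, with a median log2 fold change of 0.22. Their most abundant member, the hyaluronan receptor Cd44, had a log2 fold change of 0.20. Among proteases of cartilage matrix, 6 of 8 tested genes were higher in the mandible, with a median of 3.64. Adamts9, Adamts1 and Adamts5, enzymes that cleave proteoglycans such as aggrecan or versican, had log2 fold changes of 5.83, 4.10 and 3.70, and Adamts5 was not called without S19 or S23 (edgeR, adjusted p 0.060 and 0.095). By limma-voom neither Adamts1 (adjusted p = 0.089) nor Adamts5 (adjusted p = 0.053) was called. Among 8 tested genes of tendon, ligament and joint, 3 rose, with a median of 3.99. They were Dkk3 (7.81), Thbs4 (6.84, at 0 in S13 and S18) and Mkx (4.08), the last of which was called only without S16 among the fits that left out 1 library.

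**Figure D4:**
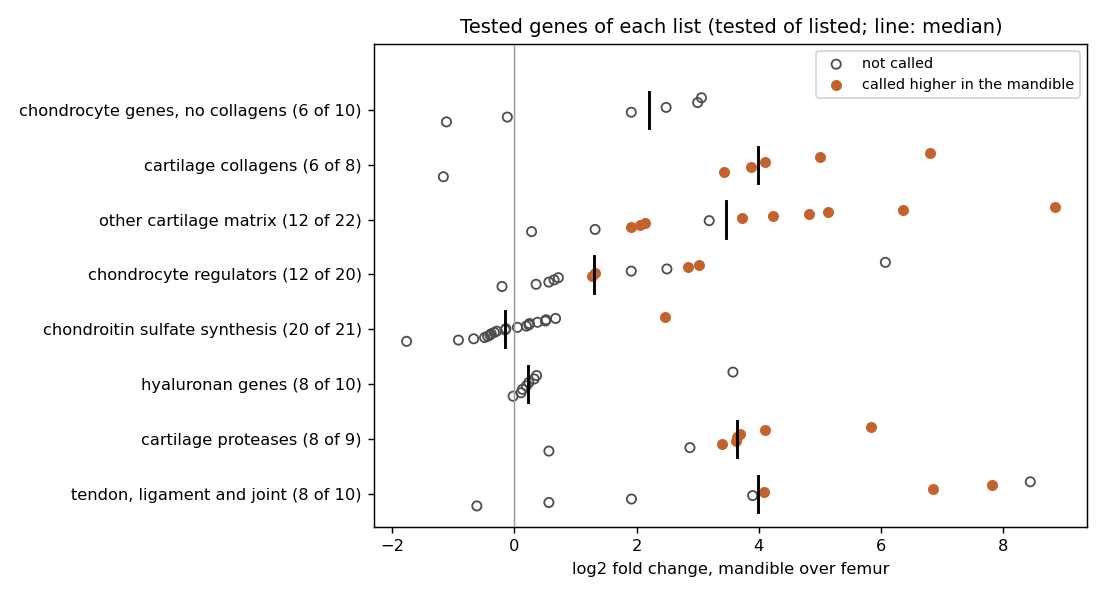
Log2 fold change (mandible over femur) of the tested genes of the 10 chondrocyte genes and of 7 other lists, with called genes filled, others open and a line at each median. None of the 6 tested chondrocyte genes is filled, while 5 of 6 cartilage collagens and 6 of 8 cartilage proteases are.

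The mean profile of the 6 tested members over the libraries, each gene centred on its own mean log2(CPM + 0.5), was lowest in S18 (-1.06) and S13 (-0.71), near 0 in S16 (0.077) and S15 (0.094), and highest in S19 (0.61) and S23 (1.00). S15 lay among the mandible libraries in it. The 5 tested genes most like this profile were Gm44283, Impact, Stx6, Mfsd4a and Nid2, with Pearson correlations of 0.991 to 0.993 over 6 libraries. None of the 5 was called (edgeR, adjusted p 0.17 to 0.83).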

How the data were processed

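Paired-end reads were trimmed with Trimmomatic, mapped with HISAT2 2.1.0 and counted per gene with featureCounts, per the labels and the study's methods, and the authors deposited raw counts without normalization. The methods name GRCm38, but only 2979 of 52029 genes shared with GENCODE M21 had a table interval inside the M21 gene, so positions come from M21 by Ensembl identifier. The test was edgeR's quasi-likelihood F test (edgeR 4.0.16 under R 4.3.3) on TMM-scaled libraries with a prior count of 0.125, for genes kept by filterByExpr (smallest count 10, smallest total 15). The procedure was run on simulated data with a 4-fold change in some genes. Of 180 tested genes with that change 70 were called, all with the right sign, as were 4 of 17702 unchanged genes. Most 4-fold changes were thus missed, so a gene that was not called cannot be taken as unchanged. Standard errors were taken from the fold change and its F statistic. Single genes were also tested by permutation of log2(CPM + 0.5). Library totals were 15718782 to 25371474 counts, so that 1 read was 0.0442 to 0.0572 TMM-scaled CPM. Gene lengths were those of the table. Alternatives were DESeq2 1.42.0, limma-voom (limma 3.58.1), other scalings, filters and thresholds, a loess correction for length (span 0.4) and each library left out. Windows before gene starts came from RefSeq. The members and gene lists were chosen with earlier results of these data known. Named genes were the members, the cartilage collagens, up to 3 called genes with the largest change and up to 2 of the most abundant in each other cartilage list, the 2 most abundant of each other cell type, sex-linked genes and the 5 genes most like the members' mean profile. Genes of the rule on which no result turns are not named.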

Additional observations from a re-analysis of the deposited data

How the results depend on the processing

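No paired analysis was possible because the groups share no replicate number. The number of members called was 0 under 15 of the 16 alternatives and 1 without femur S15. That 1 was Acan, which passed the filter there only through the mandible libraries. The 6 fits without 1 library thus gave 0 to 1. The stricter adjusted p and the dropped fold change threshold could give only 0, as the smallest adjusted p of a member was 0.32 (edgeR). The filter of 10 counts in every library tested Sox6 alone. The number of all genes called was 938, against 1548 under DESeq2, 1590 with no filter beyond a single count, 445 at an adjusted p under 0.01, and 434 (without mandible S19) to 1565 (without femur S15) with 1 library left out. Of the other cartilage genes 28 were called, against 17 where each library had to hold 10 counts, 18 at an adjusted p under 0.01, and 17 to 29 with 1 library left out. Hapln1, Prg4 and Sox9 kept their sign and stayed uncalled in every alternative that tested them, and limma-voom, which gave Acan 4.65, called none of them either. By limma-voom the calls of Col9a2, Matn4, Fgfr3, Adamts1, Adamts5 and Mkx were lost (adjusted p 0.053 to 0.11). The sign turned for Sox5 without femur S15 (0.77) and without mandible S16 (0.38), and for Sox6 (0.18), Vcan (-0.094), Slc4a1 (0.040) and Ccr2 (-0.22) without femur S13. The length correction turned Vcan (-0.25), Trps1 (-0.023), Cd44 (-0.15), Lyz2 (0.087), Ccr2 (-0.31) and Stx6 (-0.36). Cd44 turned without femur S15 (-0.0073), and Ccr2 under limma-voom (-0.012), with every gene counted (-0.019), at a mean CPM of at least 1 (-0.032), without S16 (-0.11) and without S19 (-0.25). None of these signs belonged to a called value, and the cause was not tested. With 1 library left out, values ran from -0.53 to 0.77 for Sox5, -1.54 to 0.18 for Sox6, -0.094 to 1.14 for Vcan, -0.0073 to 0.39 for Cd44, -2.15 to 0.040 for Slc4a1 and -0.25 to 0.25 for Ccr2. Of the 677 single-gene values recomputed, 604 kept direction and call, 50 lost a call and 5 gained one. The changed thresholds and the other prior count are among them and reuse the p-values of the main fit. Members other than Sox6 had at most 103 counts in a library, which limits how small a difference could be seen.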
